A study of Sus scrofa with 24 samples.

Results

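The genes described here encode the subunits of the 5 complexes of oxidative phosphorylation, measured in pig longissimus dorsi, a long muscle of the back. They are the genes whose symbol in the array annotation starts with NDUF, UQCR or ATP5, starts with COX and a digit from 4 to 8, or is CYC1, SDHA, SDHB, SDHC or SDHD, each represented by its brightest probe set over the arrays. The rule found 63 of the 6765 genes that have a probe set with a single symbol. They are 33 subunits of complex I, 3 assembly factors of complex I, 4 subunits of complex II, 2 of complex III, 7 of complex IV and 14 genes of complex V. CYC1, the mitochondrially encoded subunits and other subunits that the rule did not find are not analysed here. Of the 63 genes, 62 lay above the background ceiling on all 24 arrays, and NDUFAF2 lay above it on 22.

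RNA was measured on Affymetrix Porcine Genome Arrays, 1 RNA pool to an array. The groups were Pietrain (Pi, a lean and heavily muscled breed) at 35, 63 and 91 days after conception (dpc) and in adults, and German Landrace (DL) at the same 4 stages. Each of the 8 groups had 3 pools, called a, b and c. The labels do not give how many animals made up a pool, which sex they were or how old the adults were, and whole muscle was extracted, so the pools hold every cell type of the tissue. All titles at 35 dpc carry a letter K that is not explained, and the descriptions of the prenatal pools speak of peripubertal animals. Groups were taken from the breed and stage fields, and what the letter says of the 35 dpc material was not settled.

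The respiratory chain passes electrons from NADH through complex I and from succinate through complex II to ubiquinone, on to complex III, to cytochrome c and, at complex IV, to oxygen. Complexes I, III and IV pump protons across the inner mitochondrial membrane, and complex V, the ATP synthase, uses the gradient to make ATP. Several subunits of complex IV exist as a form found in most tissues and a form found in heart and skeletal muscle, encoded by separate genes, and developing muscle is known to exchange widespread forms for muscle forms.

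The deposited values are log2 intensities that had been brought to the same distribution on every array, so a change here means one relative to the rest of the array, and a log2 change of 1 is a factor of 2. Genes were compared with limma over 23999 probe sets, with Benjamini-Hochberg adjusted p below 0.05 as the threshold for a call, and values after ± are standard errors of that fit. On each array 21.3% to 32.2% of probe sets did not exceed the background ceiling, the highest signal of its absent controls, and the median of the 63 genes ranked at the 97.7th percentile of mean level. Markers of skeletal muscle fibres were present at every stage: the summed linear level of 11 of them was 103000 to 106000 in Pi pools and 108000 to 116000 in DL pools at 35 dpc, and 431000 to 450000 in Pi pools and 440000 to 456000 in DL pools of adults. The 3' minus 5' log2 difference of the GAPDH control, a measure of RNA integrity, was 1.08 to 1.21 in Pi and 0.52 to 0.80 in DL at 35 dpc, 0.71 to 0.84 and 0.67 to 0.72 at 63 dpc, 0.84 to 1.31 and 0.25 to 1.16 at 91 dpc, and -0.61 to -0.55 and -0.46 to -0.39 in adults. The DL 91 dpc pool c stood apart in its group with 1.16, against 0.28 and 0.25 in pools a and b.

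The first question was how the chain changed between successive stages, averaged over both breeds. Relative to the other probe sets, 41 of the 63 genes rose and 12 fell between 35 and 63 dpc, 45 rose and 1 fell between 63 and 91 dpc, and 32 rose and 11 fell between 91 dpc and the adult. Of all probe sets, 22.3% rose and 22.0% fell over the first step, 8.88% rose and 9.4% fell over the second, and 30.8% rose and 26.6% fell over the third. The median log2 change of the 63 genes was 0.39, 0.45 and 0.27 over the 3 steps, against 0.00, 0.00 and 0.06 over all probe sets. These directions rest on the scaling: scaling to the hybridisation controls put the median over all probe sets at -0.79 for the first step and that over the 63 genes at -0.40, and 3 genes rose and 41 fell. Over the second step that scaling put the medians at -0.15 and 0.30 with 30 genes higher and 1 lower, and over the third at -0.13 and 0.08 with 23 higher and 17 lower. Shares of all probe sets called under that scaling are not given here, so these counts are not set against the rest of the array. Only the genes picked for pool values at a step were followed singly under that scaling. Of these, NDUFAF3 (-0.39), UQCR10 (-0.35), ATP5G1 (-0.37), SDHB (-0.53), SDHC (-0.76) and SDHD (-0.47) turned negative over the first step. The scaling moves every probe set of an array alike, so other genes with small rises turned negative too and are not listed. Among the genes followed, it ended the first-step calls of ATP5G2 (0.20), COX7A1 (0.48), NDUFB7 (0.23), SDHA (0.11) and UQCRB (0.01). It also ended the second-step calls of ATP5G3 (0.04) and SDHD (0.23), and the third-step calls of ATP5G1 (0.16) and SDHD (0.16). In whole muscle, more mitochondria-rich cells and more transcript per cell cannot be told apart.

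**Figure D1:**
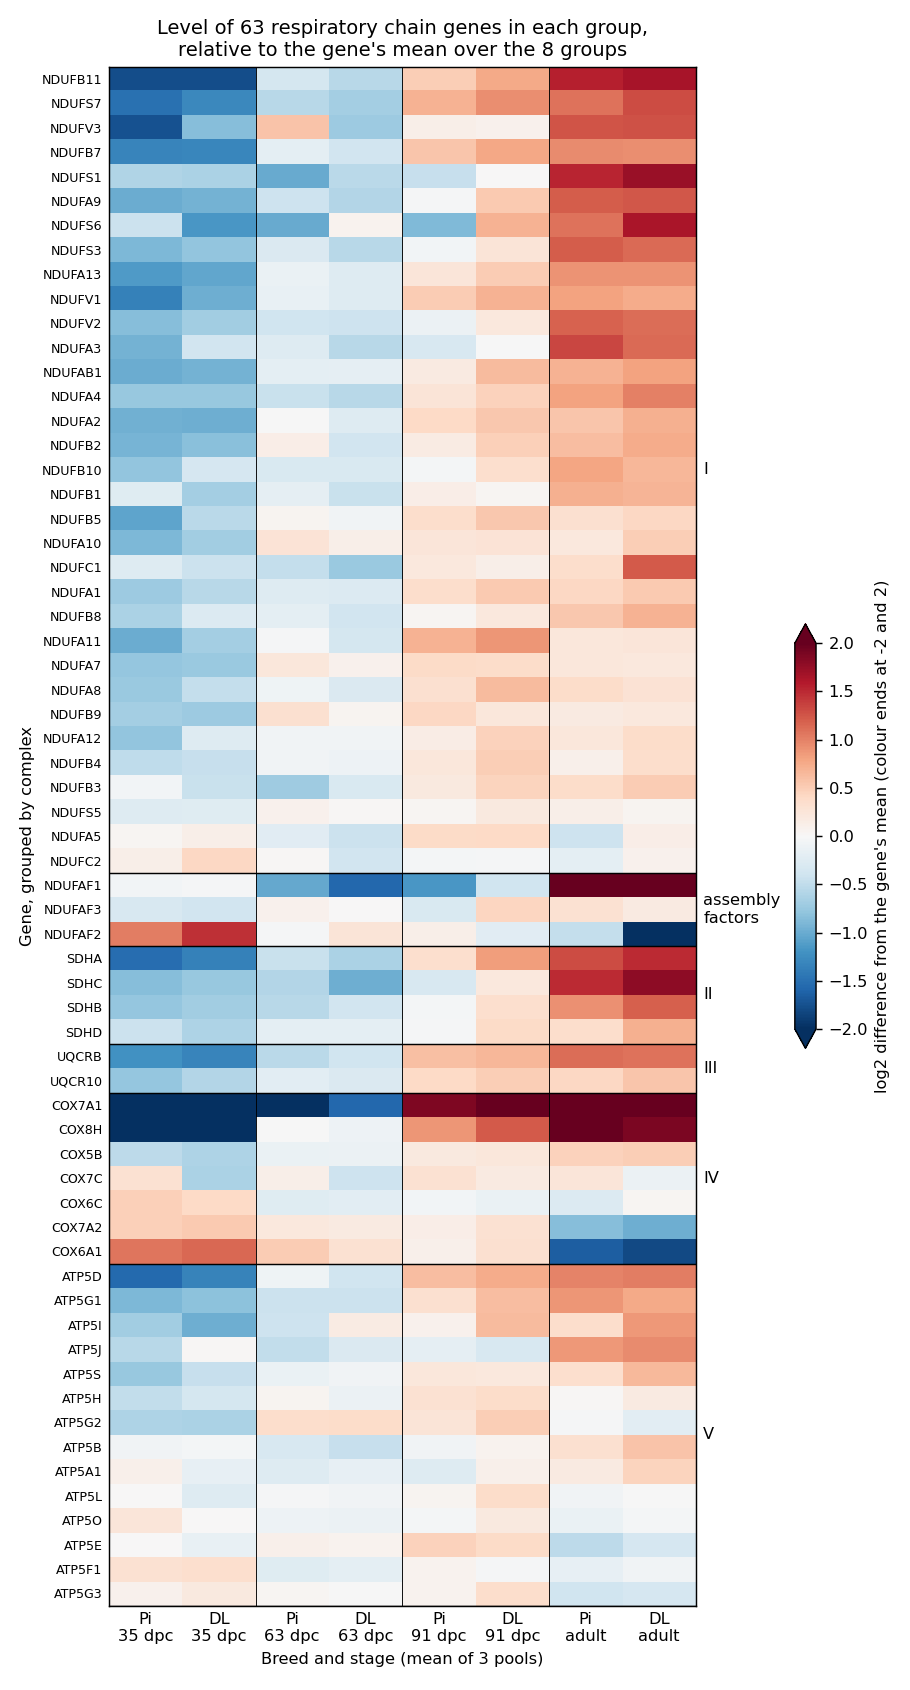
Group mean (3 pools) of each of the 63 genes as a log2 difference from the mean of that gene over the 8 groups, with breeds side by side within each stage and genes ordered within a complex by the adult minus 35 dpc difference. Complex I, II and III are mostly blue at 35 dpc and red in adults, while complex IV holds COX7A1 and COX8H at one end and COX6A1 and COX7A2 at the other, and complex V is paler.

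Over the 3 steps together, 44 genes had calls only upwards, 22 of them at every step, 5 had calls only downwards, 13 had calls in both directions, and COX7C had none. Of all 23999 probe sets 29.4% had calls only upwards, 2.3% calls upwards at every step, 24.9% calls only downwards and 17.9% calls in both directions, and 27.8% had none. The members are bright, and dim probe sets enter these shares. Over the brightest probe sets of the 6765 genes the shares were 32.1%, 4.24%, 26.9%, 23.2% and 17.9%. Of 33 complex I subunits 29 had calls only upwards, as had all 4 of complex II and both of complex III. In complex IV 3 genes had calls only upwards and 3 only downwards. In complex V 9 of 14 had calls both ways and 5 only upwards. The difference between adults and 35 dpc had a median of 1.29 in complex I, 2.12 in complex II, 1.76 in complex III, 0.23 in complex IV and 0.51 in complex V, on the log2 scale. Within complex IV it ran between -2.83 and 6.36.

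**Figure D2:**
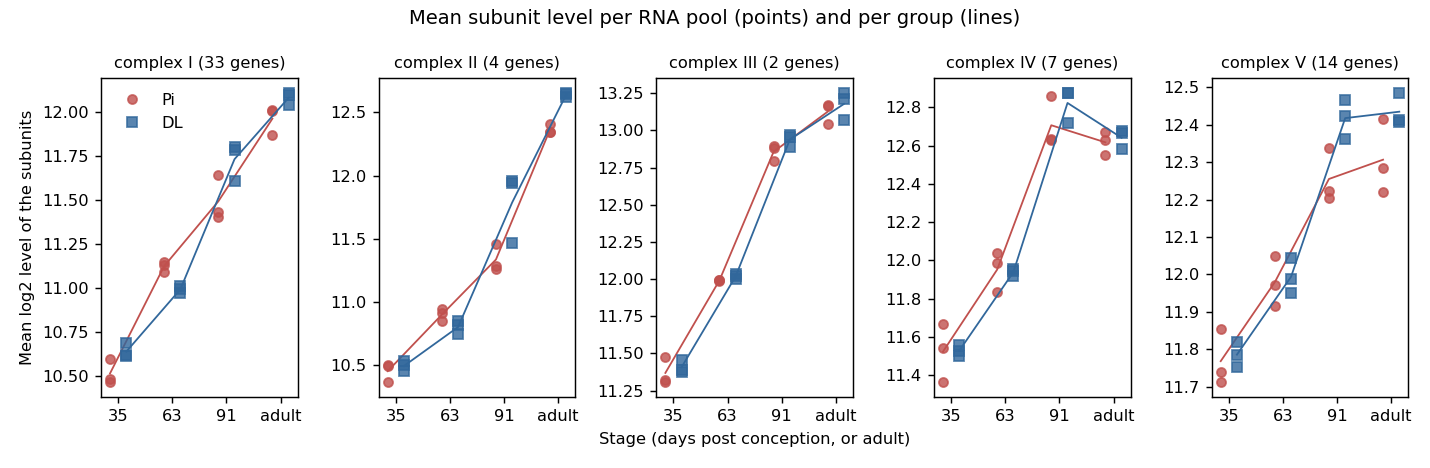
Mean log2 level of the subunits of each complex in every RNA pool (points, 3 per breed and stage) and the group means (lines), against stage. Each of the 5 panels has its own axis: the means of complexes I, II and III go up at each stage, and those of complexes IV and V level off or dip between 91 dpc and the adult.

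Complex I oxidises NADH. Its catalytic core was represented by NDUFV1, which binds NADH and the flavin, the iron-sulfur subunits NDUFV2, NDUFS1 and NDUFS7, and NDUFS3. Of these 5 genes 4 rose over the first step, 5 over the second and 4 over the third. NDUFS7, which carries the last iron-sulfur cluster before ubiquinone, had a lowest, median and highest log2 level over the 6 pools of a stage of 9.24, 9.51 and 9.61 at 35 dpc, 10.00, 10.23 and 10.37 at 63 dpc, 11.28, 11.65 and 12.03 at 91 dpc and 11.80, 12.03 and 12.23 in adults. It changed by 0.78 ± 0.10, 1.43 ± 0.10 and 0.37 ± 0.10, so its largest step was that between 63 and 91 dpc. NDUFV1 followed with 0.96 ± 0.07 and 0.80 ± 0.07, and its step into the adult, 0.17 ± 0.07, did not pass (adjusted p = 0.0547).

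NDUFS1, the largest iron-sulfur subunit of the core, moved late. Its levels were 9.15, 9.25 and 9.39 at 35 dpc, 8.76, 9.07 and 9.47 at 63 dpc, 9.31, 9.63 and 10.10 at 91 dpc and 11.31, 11.52 and 11.73 in adults. The first step did not pass (-0.15 ± 0.09, adjusted p = 0.168), the second did (0.54 ± 0.09), and the third, 1.85 ± 0.09 (adjusted p = 2.27e-12), was the largest log2 change of any complex I subunit between 91 dpc and the adult, with no overlap of the 6 adult pools and the 6 at 91 dpc. NDUFV2 and NDUFS3 also took their largest step then, with 1.11 ± 0.06 and 1.06 ± 0.09, after 0.45 ± 0.06 and 0.53 ± 0.09 between 63 and 91 dpc. The median change of the 5 core genes over the third step was 1.06, beside 0.21 for the 28 accessory subunits. Over the first step these medians were 0.42 and 0.44, and over the second 0.54 and 0.46. The third-step core median is the value of NDUFS3, whose dimmer probe sets changed by -0.51 and 1.82 over that step.

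The accessory subunits of complex I surround the core and have roles in its assembly and stability. Of 28, 22 rose and 3 fell over the first step, 22 rose and none fell over the second, and 14 rose and 2 fell over the third. NDUFB11, a subunit of the membrane arm, had the largest net difference of complex I, 3.38 between adults and 35 dpc. Its levels were 9.51, 9.74 and 9.85 at 35 dpc, 10.89, 11.04 and 11.18 at 63 dpc, 11.81, 12.14 and 12.33 at 91 dpc and 12.96, 13.08 and 13.25 in adults, without overlap between any successive stages. Its steps were 1.33 ± 0.08, 1.07 ± 0.08 and 0.98 ± 0.08. NDUFB7 rose by 1.02 ± 0.08 over the first step, its pools standing at 10.65, 10.92 and 10.99 at 63 dpc, against 9.73, 9.87 and 9.97 at 35 dpc, and by 0.97 ± 0.08 and 0.27 ± 0.08 over the next steps.

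Some accessory subunits rose at every step and others only before birth. NDUFA13 (also known as GRIM19), NDUFAB1 (the mitochondrial acyl carrier protein), NDUFA9, NDUFA3, NDUFA4, NDUFB2, NDUFB10 and NDUFS6 rose at every step, as did NDUFB7 and NDUFB11, all as averages of both breeds. The first step of 2 of them parted by breed: NDUFS6 changed by -0.58 ± 0.16 in Pi, against 1.24 ± 0.16 in DL, and NDUFA3 by 0.68 ± 0.10 in Pi, against -0.17 ± 0.10 in DL (adjusted p = 0.263). Over the second step neither passed within Pi (0.12 ± 0.16 for NDUFS6 and -0.06 ± 0.10 for NDUFA3). The largest accessory rise over the third step was that of NDUFS6, 1.45 ± 0.11, with 10.18, 10.57 and 10.89 in adults, against 8.01, 9.09 and 10.02 at 91 dpc. NDUFA4 is now counted with complex IV on biochemical grounds, and its symbol belongs to a near-identical pair of gene entries, so its value may hold both. NDUFA1, NDUFA2, NDUFA8, NDUFA12, NDUFB4 and NDUFB5 rose over the first and second steps and had no call over the third, where their changes lay between -0.15 and 0.16. NDUFA7, NDUFA10, NDUFB9 and NDUFS5 rose over the first step alone, by 0.92 ± 0.10, 0.99 ± 0.08, 0.89 ± 0.09 and 0.30 ± 0.07. NDUFB1, NDUFB8 and NDUFC1 had their first call at 91 dpc, and each rose again in adults.

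A few accessory subunits went the other way. NDUFA11, of the membrane arm, stood at 10.53, 10.91 and 11.06 at 35 dpc, 11.14, 11.52 and 11.79 at 63 dpc, 12.21, 12.50 and 12.70 at 91 dpc and 11.74, 11.90 and 12.12 in adults. It rose by 0.65 ± 0.10 and 0.98 ± 0.10, and its change between 91 dpc and the adult was -0.56 ± 0.10 (adjusted p = 6.53e-05), the largest fall of a complex I subunit over that step. NDUFA5, of the matrix arm, stood at 9.37, 9.42 and 9.59 at 35 dpc, 8.76, 9.10 and 9.20 at 63 dpc, 9.58, 9.67 and 9.96 at 91 dpc and 8.73, 9.25 and 9.74 in adults, with a fall, a rise and a fall in turn (-0.41 ± 0.10, 0.71 ± 0.10 and -0.53 ± 0.10). NDUFB3 fell over the first step (-0.26 ± 0.07) and rose over the second (0.83 ± 0.07), and NDUFC2 fell over the first (-0.45 ± 0.14) with no later call. NDUFV3, a small subunit next to the NADH site, rose over the first and the third steps (1.22 ± 0.23 and 1.16 ± 0.23), and its first step differed between breeds. So did that of NDUFB3, which was -0.66 ± 0.10 in Pi, against 0.14 ± 0.10 in DL.

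**Figure D3:**
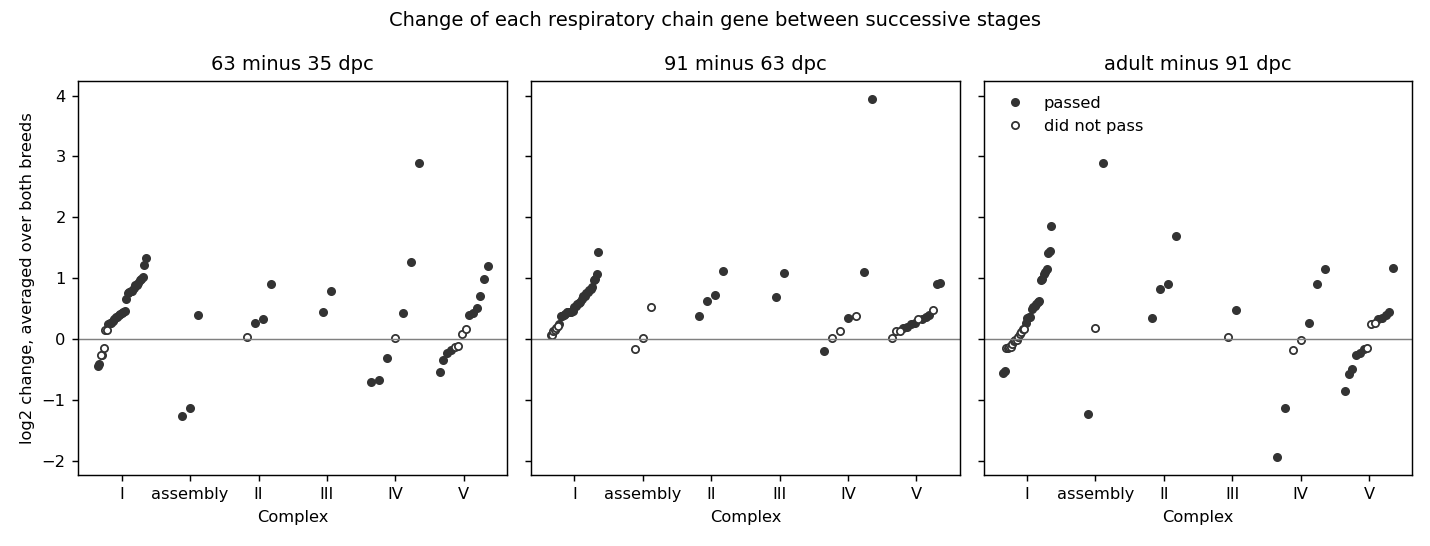
log2 change of each gene over the 3 steps between successive stages, averaged over both breeds, by complex; filled points passed the adjusted p threshold and open points did not. Over the second step nearly all points lie above 0, with 1 filled point below it in complex IV, whereas complexes IV and V have filled points on both sides of 0 over the first and the third steps.

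The 3 assembly factors, which help to build complex I and are no part of it, had 1 rise and 2 falls over the first step, no call over the second, and 1 rise and 1 fall over the third. NDUFAF1, which works on the membrane arm, stood at 5.06, 5.59 and 6.23 at 35 dpc, 4.04, 4.34 and 4.74 at 63 dpc, 4.12, 4.93 and 5.92 at 91 dpc and 7.42, 7.80 and 8.07 in adults. It fell over the first step (-1.26 ± 0.21, adjusted p = 8.55e-05), did not pass over the second (0.52 ± 0.21), and rose by 2.90 ± 0.21 (adjusted p = 1.67e-09) between 91 dpc and the adult, where all 6 adult pools lay above all 6 pools at 91 dpc. A dimmer probe set of NDUFAF1 did not pass over the first step (-0.04, adjusted p = 0.972). That probe set fell over the second (-1.24, adjusted p = 0.0183) and rose over the third (3.77). NDUFAF2, a relative of NDUFA12 that leaves before that subunit is added, stood at 5.96, 6.69 and 6.95 at 35 dpc, 4.97, 5.46 and 5.94 at 63 dpc, 4.65, 5.23 and 6.14 at 91 dpc and 2.32, 4.72 and 5.10 in adults. It fell over the first step (-1.13 ± 0.37, adjusted p = 0.0192) and over the third (-1.23 ± 0.37, adjusted p = 0.0087), and 2 of 3 adult DL pools, at 2.33 and 2.32, were not above the background ceiling. Its first call was lost without DL 63 dpc pool c (adjusted p = 0.0534) or Pi 35 dpc pool a (adjusted p = 0.0512). The mean over its 2 probe sets changed by -0.53 (adjusted p = 0.056) and -0.35 (adjusted p = 0.184), which ends both calls, and the third-step call was also lost in a fit to only the arrays compared (adjusted p = 0.0552). NDUFAF3 stood at 9.15, 9.26 and 9.43 at 35 dpc, 9.47, 9.67 and 9.83 at 63 dpc, 9.13, 9.68 and 10.22 at 91 dpc and 9.64, 9.90 and 9.99 in adults. It rose over the first step (0.40 ± 0.10), and its change of 0.18 ± 0.10 over the third step passed only without Pi 91 dpc pool c (0.26, adjusted p = 0.0275).

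Complex II, succinate dehydrogenase, links the tricarboxylic acid cycle to the chain, and all 4 of its genes were measured. Over the first step 3 of 4 rose, over the second and the third all 4 rose. SDHA, the flavoprotein that oxidises succinate, stood at 9.65, 9.96 and 10.07 at 35 dpc, 10.49, 10.83 and 11.15 at 63 dpc, 11.56, 11.96 and 12.47 at 91 dpc and 12.63, 12.77 and 12.91 in adults, with no overlap between successive stages. It rose by 0.90 ± 0.10, 1.12 ± 0.10 and 0.82 ± 0.10. SDHB, the iron-sulfur subunit, stood at 11.47, 11.65 and 11.68 at 35 dpc, 11.65, 11.90 and 12.10 at 63 dpc, 12.25, 12.53 and 12.79 at 91 dpc and 13.11, 13.46 and 13.58 in adults and rose by 0.26 ± 0.07, 0.62 ± 0.07 and 0.91 ± 0.07. A dimmer probe set of SDHB went the other way over the first and the third steps, so that the mean of both probe sets changed by -0.26 and -0.45 there.

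The anchors of complex II in the membrane were SDHC and SDHD. SDHC stood at 8.91, 9.05 and 9.19 at 35 dpc, 8.76, 9.14 and 9.40 at 63 dpc, 9.36, 9.63 and 10.45 at 91 dpc and 11.35, 11.48 and 11.69 in adults. It did not pass over the first step (0.03 ± 0.14, adjusted p = 0.935) and then rose by 0.72 ± 0.14 and 1.70 ± 0.14 (adjusted p = 4.8e-09), the largest rise of the complex over the third step. SDHD stood at 11.16, 11.24 and 11.43 at 35 dpc, 11.43, 11.61 and 11.74 at 63 dpc, 11.60, 11.88 and 12.42 at 91 dpc and 12.11, 12.32 and 12.54 in adults and rose by 0.32 ± 0.08, 0.38 ± 0.08 and 0.35 ± 0.08, the smallest net difference of the 4 genes (1.05). With arrays scaled to their hybridisation controls, the first-step changes of SDHB, SDHC and SDHD were -0.53, -0.76 and -0.47.

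Of complex III, which moves electrons from ubiquinol to cytochrome c, only the small subunits UQCRB and UQCR10 were measured. UQCRB stood at 10.87, 10.97 and 11.21 at 35 dpc, 11.62, 11.77 and 12.04 at 63 dpc, 12.72, 12.91 and 12.94 at 91 dpc and 13.26, 13.33 and 13.49 in adults, with no overlap between successive stages, and rose by 0.80 ± 0.07, 1.09 ± 0.07 and 0.47 ± 0.07. UQCR10 stood at 11.63, 11.78 and 11.91 at 35 dpc, 12.03, 12.23 and 12.37 at 63 dpc, 12.83, 12.88 and 13.03 at 91 dpc and 12.76, 12.96 and 13.08 in adults. It rose by 0.44 ± 0.07 and 0.69 ± 0.07, and its step into the adult was 0.04 ± 0.07 (adjusted p = 0.661).

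Complex IV, cytochrome c oxidase, split by isoform. COX7A1, the heart and muscle form of subunit VIIa, had the largest change of all 63 genes over the second step. Its levels in the 3 pools a, b and c were 6.21, 4.67 and 5.48 in Pi and 6.10, 6.08 and 6.66 in DL at 35 dpc, 6.41, 7.23 and 6.65 in Pi and 7.48, 7.76 and 7.27 in DL at 63 dpc, 10.46, 10.93 and 11.43 in Pi and 11.17, 11.52 and 10.96 in DL at 91 dpc, and 12.11, 11.97 and 11.73 in Pi and 12.66, 12.69 and 12.20 in DL adults. It rose by 1.27 ± 0.23 (adjusted p = 0.000173), 3.95 ± 0.23 (adjusted p = 1.12e-09) and 1.15 ± 0.23 (adjusted p = 0.000338), a 15.4-fold difference between 91 and 63 dpc. The pools of both stages overlapped only over the first step, where the lowest at 63 dpc, 6.41, lay under the highest at 35 dpc, 6.66.

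COX7A2, the form of the same subunit found in most tissues, moved the opposite way. It stood at 12.74, 12.83 and 12.97 at 35 dpc, 12.43, 12.53 and 12.69 at 63 dpc, 12.37, 12.56 and 12.67 at 91 dpc and 11.33, 11.42 and 11.52 in adults. It fell over the first step (-0.31 ± 0.06, adjusted p = 0.000229), did not pass over the second (0.02 ± 0.06, adjusted p = 0.948), and fell over the third (-1.13 ± 0.06, adjusted p = 1.1e-11), with no overlap of pools at either call. COX8H, the heart and muscle form of subunit VIII, stood at 8.73, 8.99 and 9.20 at 35 dpc, 11.70, 11.89 and 11.95 at 63 dpc, 12.57, 12.99 and 13.22 at 91 dpc and 13.69, 13.82 and 14.23 in adults. It rose by 2.89 ± 0.09 (7.40-fold), 1.11 ± 0.09 and 0.90 ± 0.09, without overlap between successive stages, so its largest step came before that of COX7A1. COX6A1, the form of subunit VIa found in most tissues, stood at 12.55, 12.71 and 12.75 at 35 dpc, 11.78, 11.98 and 12.22 at 63 dpc, 11.52, 11.75 and 11.99 at 91 dpc and 9.65, 9.85 and 9.99 in adults and was the only gene of the 63 to fall at each step (-0.70 ± 0.07, -0.20 ± 0.07 and -1.94 ± 0.07). Its second fall was the single downward call between 63 and 91 dpc (adjusted p = 0.048), and it was lost without any 1 of DL 63 dpc pools b and c, DL 91 dpc pool c, Pi 63 dpc pools b and c, and Pi 91 dpc pool b. The muscle partner of COX6A1 and the widespread partner of COX8H are not analysed here.

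The balance of the VIIa forms was also followed as the log2 difference COX7A1 minus COX7A2 within each array, in which any scaling factor of the array cancels. Its mean was -6.98 ± 0.63 at 35 dpc, -5.40 ± 0.53 at 63 dpc, -1.47 ± 0.36 at 91 dpc and 0.80 ± 0.45 in adults (SD, n = 6 pools each). It shifted by 1.58, 3.93 and 2.27 towards the muscle form over the 3 steps, and the pools of successive stages did not overlap at any step (exact two-sided permutation test over arrays, adjusted p = 0.00278 for each step over 9 tests, from 0.00216, the smallest p that 6 against 6 arrays can give). The rise of COX7A1 and the fall of COX7A2 both enter it, so it is not separate evidence of either.

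The remaining complex IV genes were COX5B, COX6C and COX7C. COX5B, a zinc-binding subunit, rose at each step (0.43 ± 0.09, 0.35 ± 0.09 and 0.26 ± 0.09). COX6C stood at 13.22, 13.34 and 13.39 at 63 dpc, against 13.85, 13.98 and 14.19 at 35 dpc. It fell by 0.67 over that step, without overlap, and had no later call. COX7C did not pass at any step, with changes of 0.02 ± 0.17, 0.38 ± 0.17 and -0.18 ± 0.17.

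**Figure D4:**
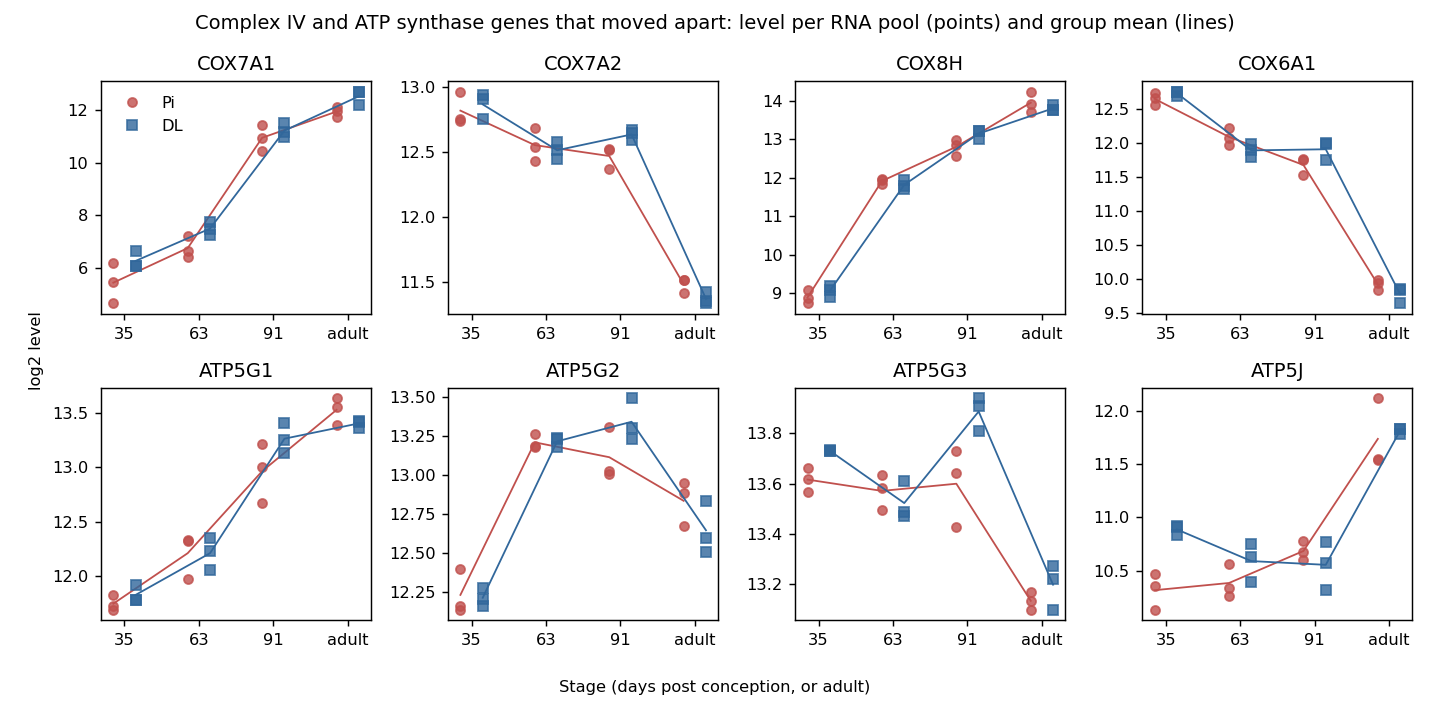
log2 level of 4 complex IV genes (top row) and 4 ATP synthase genes (bottom row) in every RNA pool (points, 3 per breed and stage) with group means (lines); each panel has its own axis. COX7A1 and COX8H climb where COX6A1 and COX7A2 descend, and ATP5G1 climbs where ATP5G2 and ATP5G3 turn down in adults.

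Complex V makes ATP, and its subunits did not move as a block. Over the first step 6 of 14 rose and 4 fell, over the second 9 rose and none fell, and over the third 5 rose and 6 fell. ATP5D, the delta subunit, had the largest net difference of the complex (2.45). It stood at 9.70, 9.80 and 9.98 at 35 dpc, at 10.78, 11.06 and 11.25 at 63 dpc, between 11.75 and 12.11 at 91 dpc and at 12.21, 12.26 and 12.38 in adults, without overlap between successive stages, and rose by 1.21 ± 0.06, 0.92 ± 0.06 and 0.33 ± 0.06. ATP5B, the catalytic beta subunit, stood at 13.72, 13.80 and 13.91 at 35 dpc, 13.28, 13.47 and 13.59 at 63 dpc, 13.71, 13.86 and 13.98 at 91 dpc and 14.10, 14.31 and 14.44 in adults. It fell over the first step (-0.34 ± 0.05) and rose over the second and the third (0.40 ± 0.05 and 0.44 ± 0.05). ATP5A1, the alpha subunit, fell over the first (-0.19 ± 0.05) and rose over the third (0.40 ± 0.05). ATP5E, the epsilon subunit, stood at 13.06, 13.26 and 13.54 in adults, against 13.98, 14.16 and 14.21 at 91 dpc. It rose by 0.33 ± 0.07 over the second step, and its step into the adult, -0.85 ± 0.07 (adjusted p = 6.68e-09), was the largest fall of the complex over that step.

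ATP5G1, ATP5G2 and ATP5G3 encode the same mature c subunit of the rotor ring from separate genes, and they parted. ATP5G1 stood at 11.69, 11.79 and 11.92 at 35 dpc, 11.98, 12.28 and 12.35 at 63 dpc, 12.68, 13.17 and 13.41 at 91 dpc and 13.36, 13.42 and 13.64 in adults and rose by 0.42 ± 0.09, 0.90 ± 0.09 and 0.35 ± 0.09. ATP5G2 stood at 12.14, 12.18 and 12.40 at 35 dpc, 13.18, 13.21 and 13.26 at 63 dpc, 13.01, 13.27 and 13.49 at 91 dpc and 12.51, 12.75 and 12.95 in adults. It rose over the first step (0.99 ± 0.08), did not pass over the second (0.02 ± 0.08) and fell over the third (-0.49 ± 0.08). ATP5G3 stood at 13.57, 13.70 and 13.74 at 35 dpc, 13.47, 13.54 and 13.64 at 63 dpc, 13.43, 13.77 and 13.94 at 91 dpc and 13.10, 13.15 and 13.27 in adults, with no call over the first step (-0.13 ± 0.05; -0.15 and adjusted p = 0.0462 without DL 63 dpc pool b), a rise over the second (0.20 ± 0.05, adjusted p = 0.0162; adjusted p = 0.0501 without Pi 91 dpc pool c) and a fall over the third (-0.58 ± 0.05).

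Within arrays, the log2 difference ATP5G1 minus ATP5G3 had means of -1.88, -1.33, -0.63 and 0.30 at 35, 63 and 91 dpc and in adults. It shifted by 0.55, 0.71 and 0.93 over the 3 steps, without overlap (exact two-sided permutation test, adjusted p = 0.00278 each, 6 arrays a stage). ATP5G2 minus ATP5G3 shifted by 1.12 over the first step (exact permutation, adjusted p = 0.00278), by -0.18 over the second (exact permutation, adjusted p = 0.0341) and by 0.09 over the third (exact permutation, adjusted p = 0.366). The call of the second step was lost without any 1 of DL 63 dpc pools a and c, DL 91 dpc pools a and c, Pi 63 dpc pool a and Pi 91 dpc pool a, with adjusted p-values of 0.0609 to 0.0706.

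In the stalk and membrane part of complex V, ATP5J, a coupling factor of the stalk, was called over the third step alone. It stood at 10.13, 10.65 and 10.92 at 35 dpc, 10.26, 10.47 and 10.75 at 63 dpc, 10.32, 10.64 and 10.78 at 91 dpc and 11.54, 11.81 and 12.12 in adults, and rose by 1.16 ± 0.11 (adjusted p = 2.59e-08) with all adult pools above all those at 91 dpc. ATP5F1, subunit b, stood at 12.57, 12.67 and 12.76 at 63 dpc, against 13.08, 13.19 and 13.36 at 35 dpc. It fell by 0.55 over that step and rose by 0.25 ± 0.07 over the next. ATP5H, subunit d, rose over the first and second steps and fell over the third (-0.23 ± 0.07). ATP5O, the oligomycin sensitivity protein, fell, rose and fell (-0.23 ± 0.05, 0.19 ± 0.05 and -0.16 ± 0.05), and ATP5L, subunit g, rose over the second and fell over the third (0.26 ± 0.08 and -0.26 ± 0.08). The dimmer probe sets of ATP5L went the other way over the third step (1.88 and 2.07), and fell over the first (-1.87 and -1.52). ATP5I, subunit e, rose over the first step (0.71 ± 0.21), as did ATP5S (0.51 ± 0.13), which the symbol rule includes although it is not a structural subunit.

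Other genes of energy metabolism, from lists written with earlier results of these data known, gave the setting. Of 17 measured genes of the tricarboxylic acid cycle 9 rose and 3 fell over the first step, 11 rose and none fell over the second, and 14 rose and 1 fell over the third. OGDH, of the oxoglutarate dehydrogenase complex, rose by 1.71 ± 0.14, 0.74 ± 0.14 and 1.76 ± 0.14, and IDH2, the mitochondrial NADP-dependent isocitrate dehydrogenase, by 0.58 ± 0.11, 0.80 ± 0.11 and 1.71 ± 0.11. PDHA1, of pyruvate dehydrogenase, and SUCLA2, of succinyl-CoA synthetase, had no call over the first step and rose by 1.85 ± 0.15 and 1.70 ± 0.13 over the third. Of 13 measured assembly factors outside the symbol rule 6 rose and 2 fell, then 3 rose and 1 fell, then 9 rose and 1 fell. COX10, of heme a synthesis, rose by 1.53 ± 0.22 and 2.11 ± 0.22 over the first and the third steps, TACO1, a translational activator of a complex IV subunit, by 1.01 ± 0.18, 0.80 ± 0.18 and 1.37 ± 0.18, and ECSIT, a partner of NDUFAF1, by 1.06 ± 0.10, 0.68 ± 0.10 and 1.23 ± 0.10. SCO2, a copper chaperone of complex IV, fell over the third step (-1.26 ± 0.52).

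Of 12 genes listed for electron carriers and nucleotide exchange, the VDAC genes and CKMT2 among them, 8 rose and 2 fell over the first step. Over the second 7 rose and none fell, and over the third 9 rose and 2 fell. CKMT2, the muscle form of mitochondrial creatine kinase, rose by 1.17 ± 0.12 over the first step and by 4.17 ± 0.12 over the third. The genes of the ADP/ATP carrier also parted. SLC25A4, its heart and muscle form, rose by 2.18 ± 0.07, 1.27 ± 0.07 and 0.56 ± 0.07, SLC25A5 fell over the first step (-1.27 ± 0.17), and SLC25A6 rose by 0.28 ± 0.06 over the first and fell over the third (-2.87 ± 0.06). Of 7 measured regulators of mitochondrial genes 1 rose and 2 fell, then 1 rose, then 2 rose and 2 fell. PPARGC1A, a coactivator of these genes, rose by 2.45 ± 0.35 and 2.07 ± 0.35 over the second and the third steps, PPARD, a nuclear receptor, rose by 1.17 ± 0.35 and 1.41 ± 0.35 over the first and the third, and TFAM, which packages mitochondrial DNA, and the factor YY1 fell over the first (-0.68 ± 0.15 and -0.57 ± 0.07) and over the third (-1.15 ± 0.15 and -0.37 ± 0.07).

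Markers of cell types moved over the same steps. All 8 measured neural markers fell between 35 and 63 dpc, and their summed linear level was 212 to 234 in Pi pools and 235 to 321 in DL pools at 63 dpc, against 38800 to 48000 in Pi pools and 44500 to 50600 in DL pools at 35 dpc, with SNAP25 and RTN1 at or below the background ceiling in both breeds at 63 dpc. All 11 markers of muscle fibres rose over that step (median 3.08), 8 rose over the second and 7 rose and 2 fell over the third. Of 7 markers of slow fibres, which are rich in mitochondria, 6 rose and 1 fell, then 1 rose and 5 fell, then 7 rose, and the summed level was 226000 to 241000 in Pi and 248000 to 270000 in DL adults, against 101000 to 122000 in Pi and 139000 to 143000 in DL at 91 dpc. Endothelial markers rose in 5 and 6 of 6 over the first and second steps, and 1 rose and 4 fell over the third. Of 4 erythroid markers none rose, and 2, 0 and 3 fell over the steps. Of 3 adipocyte markers 1 rose over the first step and 2 over the second, and 1 rose and 1 fell over the third. Of 3 markers of heart muscle 1 fell over the first step, and 1 rose over each of the others. Of 7 liver markers none passed over the first step, 2 fell over the second, and 2 rose and 1 fell over the third, and in adult Pi their summed level ran between 518 and 38200. The RNA measures moved too. The GAPDH 3' minus 5' difference was -0.61 to -0.55 in Pi and -0.46 to -0.39 in DL adults, against 0.84 to 1.31 in Pi and 0.25 to 1.16 in DL at 91 dpc, without overlap in either breed. That of actin was 1.49 to 1.55 in Pi and 1.21 to 1.43 in DL at 63 dpc, against 2.38 to 2.68 in Pi and 2.12 to 2.62 in DL at 35 dpc, also without overlap. The share of probe sets that did not exceed the background ceiling was 23.8% to 32.2% in Pi and 30.8% to 31.4% in DL adults, against 23.1% to 24.2% in Pi and 23.0% to 25.7% in DL at 91 dpc. The part of these shifts in the changes of the 63 genes was not tested.

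Within each breed the steps of the 63 genes were also read as contrasts of the same fit. In Pi, 48, 29 and 41 genes were called in either direction over the 3 steps, where 37.4%, 11.6% and 47.8% of all probe sets were. In DL, 37, 44 and 37 genes were called, where 32.2%, 10.8% and 45.4% of all probe sets were. The median log2 change was 0.45, 0.30 and 0.29 in Pi and 0.27, 0.60 and 0.21 in DL. Whether a gene's step differed between the breeds is the interaction, given after the breed comparisons.

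The next question was how the breeds differed within a stage. At 35 dpc 8 of 63 genes were called between Pi and DL in either direction, where 4.03% of all probe sets were called. COX7C, NDUFS6, NDUFB1 and NDUFB3 were higher in Pi, and NDUFA3, NDUFA12, NDUFB10 and ATP5J were lower in Pi. COX7C had log2 levels of 13.85, 13.47 and 13.85 in the Pi pools, against 13.08, 13.05 and 12.27 in the DL pools, a difference of 0.92 ± 0.23 (adjusted p = 0.0312). DL pool c lay below the other DL pools, and without it the difference was 0.66 (adjusted p = 0.174). NDUFB1, of the membrane arm, had 12.46, 12.09 and 12.06 in the Pi pools, against 11.80, 11.64 and 11.86 in the DL pools (0.44 ± 0.09). NDUFB3 had 10.87, 10.87 and 11.11 in the Pi pools, against 10.53, 10.51 and 10.64 in the DL pools (0.39 ± 0.10). With the mean over probe sets the calls of COX7C (0.69, adjusted p = 0.121), NDUFS6 (0.28, adjusted p = 0.691) and ATP5J (-0.29, adjusted p = 0.461) ended. A fit to only the arrays compared ended those of COX7C, NDUFB1 and NDUFB3, with adjusted p-values of 0.129, 0.15 and 0.0756. A filter on dim probe sets ended those of NDUFB3 (adjusted p = 0.0768), ATP5J (0.0537) and NDUFB10 (0.0613), and the pool letter as a replicate block that of NDUFB3 (0.052). The pools of the breeds did not overlap in any of these genes.

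Among the genes lower in Pi at 35 dpc, NDUFA3 had 11.01, 10.91 and 10.81 in the Pi pools, against 11.50, 11.50 and 11.40 in the DL pools, a difference of -0.56 ± 0.10 (adjusted p = 0.00431). NDUFA12, the subunit that follows NDUFAF2 in assembly, had 11.28, 11.16 and 11.06 in the Pi pools, against 11.66, 11.72 and 11.74 in the DL pools (-0.54 ± 0.11). NDUFB10 had 11.08, 11.09 and 10.86 in the Pi pools, against 11.49, 11.44 and 11.45 in the DL pools (-0.45 ± 0.11; 0.077 with arrays scaled to their hybridisation controls). These values lay apart by breed without overlap, and so did those of ATP5J, with 10.13, 10.46 and 10.35 in the Pi pools, against 10.91, 10.83 and 10.92 in the DL pools (-0.57 ± 0.15). Scaled to the hybridisation controls, all probe sets had a median of 0.53 at this stage and 38 of the 63 genes were called. The share of all probe sets called under that scaling is not given here, so the 38 are not set against it. Leaving out DL pool a, b or c or Pi pool c gave 5, 4, 3 and 4 calls. Scaling to the hybridisation controls also ended the calls of NDUFA3 (-0.03, adjusted p = 0.841), NDUFA12 (-0.01, adjusted p = 0.965) and ATP5J (-0.04, adjusted p = 0.841). The calls of NDUFA3 and NDUFA12 held without any 1 pool. That of ATP5J was lost without each pool except Pi b, those of NDUFB10 and NDUFB3 without each DL pool or Pi c, that of COX7C without DL c, Pi a or Pi c, that of NDUFS6 without DL c or Pi b, and that of NDUFB1 without DL b. Of the 11 muscle fibre markers 7 were lower in Pi at this stage (median -0.70) and none higher, the summed linear level of the 8 neural markers was 38800 to 48000 in Pi and 44500 to 50600 in DL, and the GAPDH 3' minus 5' values of the breeds did not overlap; the part of these in the differences was not tested.

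NDUFS6, an accessory subunit that binds zinc near the NADH end of complex I, differed between the breeds at 3 of 4 stages. At 35 dpc its levels were 8.63, 8.88 and 8.71 in the Pi pools, against 8.04, 8.05 and 7.94 in the DL pools (0.73 ± 0.16, adjusted p = 0.0135). At 63 dpc they were 8.60, 7.95 and 7.94 in the Pi pools, against 9.46, 9.24 and 9.05 in the DL pools (-1.09 ± 0.16, adjusted p = 0.00379), and at 91 dpc 8.01, 8.43 and 8.42 in the Pi pools, against 9.84, 10.02 and 9.74 in the DL pools (-1.58 ± 0.16, adjusted p = 0.00013). Pi was thus higher at 35 dpc and lower at 63 and 91 dpc, each time without overlap. Adults had 10.18, 10.42 and 10.20 in the Pi pools, against 10.89, 10.79 and 10.73 in the DL pools, again without overlap, but the difference of -0.54 ± 0.16 did not pass (adjusted p = 0.055). A dimmer probe set of NDUFS6 lay above the background ceiling on 18 of 24 arrays, and the mean of both differed by 0.28, -0.54 and -0.17 at 35 dpc, at 63 dpc and over the 4 stages, without a call. In fits to only the arrays compared the adjusted p was 0.135 at 63 dpc and 0.0829 at 91 dpc. At 63 dpc NDUFS6 was the only 1 of the 63 genes called in either direction, where 1.37% of all probe sets were called. Leaving out DL pool b or Pi pool b gave 3 and 2 calls at that stage, and 3 markers of the liver list were lower in Pi there, with summed levels of 2670 to 3070 in Pi and 8390 to 31500 in DL. The part of these in the difference was not tested.

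At 91 dpc 6 of 63 genes were called in either direction, where 2.72% of all probe sets were called, and all 6 were lower in Pi: NDUFS6, NDUFAF3, NDUFA9, NDUFS1, NDUFAB1 and ATP5A1. NDUFAF3 had 9.19, 9.13 and 9.63 in the Pi pools, against 10.22, 10.20 and 9.73 in the DL pools, a difference of -0.73 ± 0.14 (adjusted p = 0.0101). NDUFA9, which borders the ubiquinone site, had 11.11, 10.97 and 11.30 in the Pi pools, against 11.71, 11.69 and 11.65 in the DL pools (-0.56 ± 0.13). NDUFS1 had 9.49, 9.31 and 9.43 in the Pi pools, against 10.10, 9.78 and 9.77 in the DL pools (-0.48 ± 0.12). No pool of Pi reached the lowest DL pool in these genes. NDUFAB1 had 12.76, 12.76 and 12.98 in the Pi pools, against 13.43, 13.25 and 13.18 in the DL pools (-0.45 ± 0.10), and ATP5A1 differed by -0.37 ± 0.08. In all 51 of 63 differences were negative at this stage, where 48.7% of those of all probe sets were, with a median of -0.22. A fit to only the arrays compared ended all 6 calls, with adjusted p = 0.0829 for NDUFS6, 0.25 for NDUFAF3, 0.146 for NDUFA9, 0.222 for NDUFS1 and 0.203 for NDUFAB1. A filter on dim probe sets ended those of NDUFA9 (0.0511) and NDUFS1 (0.0725). ATP5A1 was not followed singly under that filter or with pools left out.

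The count at 91 dpc turned on single pools. Over the 60 subunits the mean log2 level was 11.79, 11.77 and 11.97 in Pi pools a, b and c, against 12.11, 12.13 and 11.95 in DL pools a, b and c, so pool c of DL stood below pool c of Pi. Without DL pool c 14 genes were called, without Pi pool c 10, without DL pool b or Pi pool a 3, and without DL pool a or Pi pool b 1. NDUFS6 was called without any 1 pool. NDUFAF3 was lost without DL a or Pi b, NDUFAB1 without DL a, Pi a or Pi b, NDUFA9 without DL a, DL b, Pi a or Pi b, and NDUFS1 without DL a, DL b or any 1 Pi pool. DL pool c is also the pool whose GAPDH 3' minus 5' value stood apart, and of the 7 slow fibre markers 4 were lower in Pi and none higher at this stage; the part of either in the differences was not tested. Scaled to the hybridisation controls, all probe sets had a median of -0.33 and 42 of the 63 genes were called, all lower in Pi. Shares of all probe sets called under that scaling, or with a pool left out, are not given here. The counts from these fits are thus not set against the rest of the array.

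In adults 4 of 63 genes were called in either direction, where 6.33% of all probe sets were called, and all 4 were lower in Pi. NDUFC1, a small subunit of the membrane arm, had 10.92, 10.55 and 10.86 in the Pi pools, against 11.61, 11.68 and 11.69 in the DL pools, a difference of -0.89 ± 0.16 (adjusted p = 0.00315) without overlap. NDUFA5 had 9.24, 8.73 and 8.85 in the Pi pools, against 9.26, 9.74 and 9.47 in the DL pools (-0.55 ± 0.14), COX6C had 13.26, 13.38 and 13.22 in the Pi pools, against 13.63, 13.63 and 13.55 in the DL pools (-0.31 ± 0.09), and ATP5B had 14.10, 14.22 and 14.19 in the Pi pools, against 14.44, 14.40 and 14.43 in the DL pools (-0.25 ± 0.07). The count was close to that share, and the pools of the breeds did not overlap in these 4 genes. Without DL pool b, DL pool c, Pi pool a or Pi pool c the count was 2, 1, 2 and 1, and without Pi pool b it was 5. The 4 calls also ended with array weights, with adjusted p-values of 0.161 for NDUFC1, 0.391 for NDUFA5, 0.495 for COX6C and 0.445 for ATP5B, and in a fit to only the adult arrays, with 0.154, 0.432, 0.304 and 0.342. COX6C and ATP5B were lost under the filter on dim probe sets (0.1 and 0.136) and with the replicate block (0.0579 and 0.0666). NDUFC1 stayed called without any 1 pool, NDUFA5 was lost without DL b, DL c, Pi b or Pi c, and COX6C and ATP5B without each pool except Pi b. COX7A1 differed by -0.58 ± 0.33 (adjusted p = 0.34) and COX8H by 0.15 ± 0.13 (adjusted p = 0.612). In adults the GAPDH 3' minus 5' difference was -0.61 to -0.55 in Pi and -0.46 to -0.39 in DL. That of actin was 2.41 to 2.59 in Pi and 2.28 to 2.35 in DL, neither with overlap. Adult Pi pool b had 23.8% of probe sets at or under the background ceiling, against 32.2% and 31.3% in pools a and c. The summed slow fibre markers were 226000 to 241000 in Pi and 248000 to 270000 in DL. The part of these in the differences was not tested.

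Averaged over the 4 stages, 7 of 63 genes were called in either direction, where 6.29% of all probe sets were called. Higher in Pi were COX7C, with lowest, median and highest levels of 13.46, 13.60 and 13.90 over the 12 Pi pools, against 12.27, 13.15 and 13.81 over the 12 DL pools (0.49 ± 0.12), and NDUFB1, with 12.06, 12.50 and 13.26 over the 12 Pi pools, against 11.64, 12.26 and 13.18 over the 12 DL pools (0.21 ± 0.05). Lower in Pi were NDUFS6, with 7.94, 8.62 and 10.42 over the 12 Pi pools, against 7.94, 9.60 and 10.89 over the 12 DL pools (-0.62 ± 0.08), and COX7A1, with 4.67, 8.84 and 12.11 over the 12 Pi pools, against 6.08, 9.36 and 12.69 over the 12 DL pools (-0.60 ± 0.16). These ranges overlap widely, since they span the 4 stages. NDUFS1 had 8.76, 9.35 and 11.51 over the 12 Pi pools, against 9.08, 9.62 and 11.73 over the 12 DL pools (-0.28 ± 0.06). NDUFA12 had 11.06, 11.93 and 12.37 over the 12 Pi pools, against 11.66, 12.08 and 12.50 over the 12 DL pools (-0.25 ± 0.05), and SDHB had 11.47, 12.12 and 13.43 over the 12 Pi pools, against 11.64, 12.36 and 13.58 over the 12 DL pools (-0.23 ± 0.05), all 3 lower in Pi. These averages include the stages at which each gene was called, so they are not separate evidence. The mean over probe sets ended the calls of COX7C (0.22, adjusted p = 0.319) and NDUFS6 (-0.17, adjusted p = 0.39), scaling to the hybridisation controls that of NDUFB1 (0.18, adjusted p = 0.135), and array weights (adjusted p = 0.0806) and the replicate block (0.0525) that of COX7A1. COX7A1 stood near its threshold (adjusted p = 0.0352), and leaving out any 1 of 13 of the 24 pools lifted that value to between 0.0526 and 0.0661: DL 35 dpc c, 63 dpc a and b, 91 dpc a and b, adult a and b, and Pi 35 dpc c, 63 dpc a and c, 91 dpc a and b, adult c. Of the 63 differences 54 were negative, where 50.5% of those of all probe sets were, with a median of -0.07. By stage, 42, 19, 51 and 43 of the 63 were negative at 35, 63 and 91 dpc and in adults. Of all probe sets 48.2%, 47.7%, 48.7% and 51.5% were. At 63 dpc most of the 63 were thus positive (44, median 0.10). The 11 muscle fibre markers had 5 lower in Pi and none higher over the 4 stages (median -0.19). The part of these markers in the differences was not tested.

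The last question was whether a step differed between the breeds. For the step between 35 and 63 dpc 5 of 63 genes had a called interaction in either direction, where 3.3% of all probe sets had. NDUFV3 had 6.76, 7.20 and 7.55 in Pi at 63 dpc against 4.25, 5.72 and 4.57 at 35 dpc, and 5.70, 5.84 and 6.07 in DL at 63 dpc against 5.48, 5.88 and 5.88 at 35 dpc. Its step was thus larger in Pi, by 2.20 ± 0.47 (adjusted p = 0.0147). NDUFA3 (0.85 ± 0.15) and ATP5D (0.52 ± 0.12) also had a step further up in Pi. NDUFA3 had 11.70, 11.48 and 11.58 in Pi at 63 dpc and 11.22, 11.45 and 11.22 in DL. ATP5D had 11.13, 11.25 and 11.18 in Pi at 63 dpc and 10.78, 10.88 and 10.98 in DL, after 9.70, 9.76 and 9.71 in Pi and 9.97, 9.98 and 9.85 in DL at 35 dpc. Its pools lay below those of DL at the first of these stages and above them at the second. The median of the 63 interactions was 0.18, against 0.00 over all probe sets. Of the 11 muscle fibre markers 6 had a step further up in Pi and none further down (median 0.70). Of the 7 slow fibre markers 1 did and none went further down (median 0.02). The part of these markers in the differences was not tested.

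NDUFS6 (-1.82 ± 0.23, adjusted p = 0.000338) and NDUFB3 (-0.80 ± 0.14, adjusted p = 0.00405) had a step further down in Pi. NDUFB3 had 10.19, 10.33 and 10.36 in Pi and 10.92, 10.56 and 10.64 in DL at 63 dpc, so that Pi was above DL at 35 dpc and below it at 63 dpc, both without overlap. Without DL 63 dpc pool b the count was 8. ATP5D lost its call without any 1 of DL 35 dpc pools a and b, DL 63 dpc pool a, Pi 35 dpc pool c and Pi 63 dpc pools b and c, with adjusted p-values of 0.0541 to 0.0784, and under scaling to the hybridisation controls, which put the median over all probe sets at -0.66, its value was -0.14 and 26 of the 63 genes were called. NDUFA3 lost its call there too (0.19, adjusted p = 0.414). The share of all probe sets called under that scaling is not given here, so the 26 are not set against it. The mean over probe sets ended the calls of NDUFS6 (-0.82, adjusted p = 0.132) and NDUFB3 (-0.50, adjusted p = 0.154), and the filter on dim probe sets that of ATP5D (adjusted p = 0.0779).

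For the step between 63 and 91 dpc limma called 0 of 63 interactions, where 0.0917% of all probe sets were called, and 29 of the 63 had an unadjusted p below 0.05, as had 8.54% of all probe sets. With array weights 4 were called, and without DL 91 dpc pool c or Pi 91 dpc pool c 4 and 3. Shares of all probe sets called in those fits are not given here. The median of the 63 interactions was -0.31, a smaller step in Pi, with 10 of 63 above 0, where the median of all probe sets was -0.00 and 49.7% were above 0. The 7 slow fibre markers had a median of -0.37, the 17 genes of the tricarboxylic acid cycle -0.36 and the 11 muscle fibre markers 0.07. None of these had a call, and their part in the differences was not tested. For the step between 91 dpc and the adult 3 of 63 were called in either direction, where 2.66% of all probe sets were. NDUFS6 had a larger step in Pi, by 1.04 ± 0.23 (adjusted p = 0.0209), and so had NDUFAF3, by 0.86 ± 0.20 (adjusted p = 0.0312). NDUFC1 had a smaller one, by -0.98 ± 0.23 (adjusted p = 0.0315). The adult pools of NDUFAF3 were 9.99, 9.88 and 9.92 in Pi and 9.80, 9.64 and 9.96 in DL, which overlap, as the 91 dpc pools did not. Those of NDUFC1 at 91 dpc were 10.40, 10.82 and 10.67 in Pi and 10.43, 10.52 and 10.68 in DL, which overlap, as the adult pools did not. Leaving out DL 91 dpc pool a or b, DL adult pool b or Pi 91 dpc pool a or b gave 1 call, and leaving out DL 91 dpc pool c gave 5. NDUFS6 was lost without Pi 91 dpc pool a (adjusted p = 0.0535), NDUFAF3 without any 1 of DL 91 dpc a and b, DL adult b and Pi 91 dpc a and b, and NDUFC1 without any 1 of DL 91 dpc a and b, DL adult b, Pi 91 dpc b and c and Pi adult b. All 3 calls ended with array weights (adjusted p = 0.125 for NDUFS6, 0.105 for NDUFAF3 and 0.21 for NDUFC1) and in a fit to only the arrays compared (0.0776, 0.209 and 0.0952). Scaling to the hybridisation controls ended those of NDUFS6 (0.0558) and NDUFAF3 (0.0614).

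**Figure D5:**
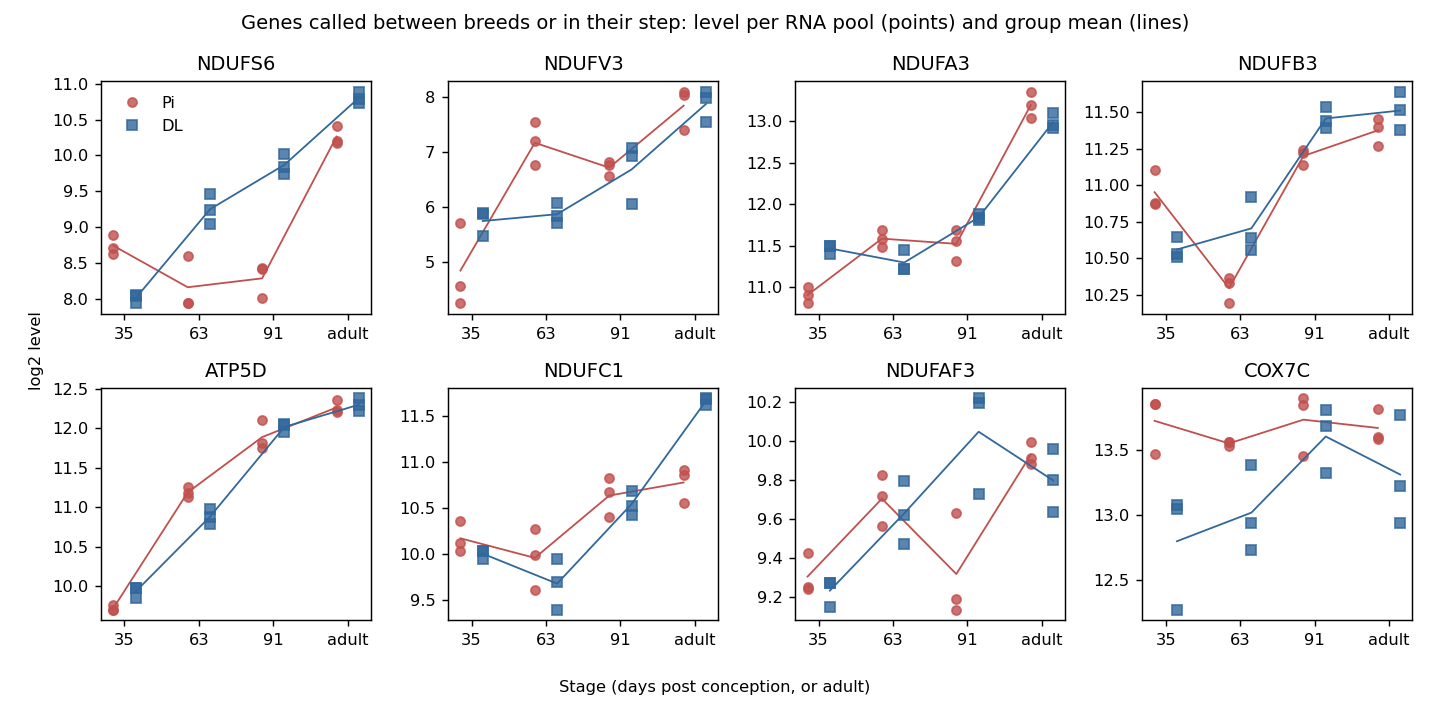
log2 level of 8 genes called between breeds or in the interaction of breed with a step, in every RNA pool (points, 3 per breed and stage) with group means (lines); each panel has its own axis. NDUFS6 in Pi lies above DL at 35 dpc and below it at 63 and 91 dpc, NDUFV3 in Pi steps up between 35 and 63 dpc where DL stays level, and NDUFC1 in adult Pi lies below adult DL.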

How the data were processed

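RNA of 24 pools, 1 array each, was measured in 8 groups of 3 pools. The authors deposited 1 log2 intensity for each of 24123 probe sets on each array. The base was taken from the range of the values, 1.60 to 16.10, since no header states it, and the sorted values of all arrays were identical, as quantile normalisation leaves them. GCOS 1.1.1 is named, per the submitters' processing notes, and how probe signals were summarised is not stated there.

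Gene names came from the platform annotation: of the 23999 probe sets left without 124 controls, 10069 had 1 symbol, 198 several and 13732 none. Each gene was represented by its brightest probe set by mean level. The 63 genes had 80 probe sets, 14 genes had several, and 4 probe sets with several symbols were left out. A background ceiling for each array, 2.31 to 2.69, was the highest of 23 absent control probe sets.

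All probe sets were fitted with limma 3.58.1 in R 4.3.3 as 8 group means with moderated variances (16 residual degrees of freedom, prior 1.31). The contrasts were 3 steps over both breeds, the same steps within each breed, 5 breed contrasts and 3 interactions, with Benjamini-Hochberg adjustment over all probe sets. Isoform differences within arrays were tested by exact permutation in R and checked with scipy 1.17.1, and figures drawn with matplotlib 3.10.9 in Python 3.11.15. The fit was tested on simulated data. The animals behind a pool are not given, so p-values measure the spread between pools, which may be technical, and the number of arrays limits the precision.

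The genes and lists were chosen with earlier results of these data known. Every gene of the rule was named. Pool values were given for isoform pairs, complex II, the assembly factors, up to 2 rises and 2 falls per complex and step that passed without overlap within either breed, and up to 5 called genes per direction in each breed contrast and interaction. Others stand with their changes. From the other lists at most 4 genes were named, by largest change in any step. Alternatives were scaling to 18 hybridisation control probe sets, limma-trend, array weights, a filter on dim probe sets, the mean over probe sets, the pool letter as a block, fits to the arrays compared only, leaving out NDUFA4 and ATP5S, and leaving out each pool. Promoter and protein sequences were not used here.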

Additional observations from a re-analysis of the deposited data

Results flagged for a closer look

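Each of the following stands here because the change over a step differed between the breeds by the test of the interaction itself in limma; values are the step in Pi minus the step in DL on the log2 scale. Between 35 and 63 dpc these were NDUFV3 (2.20), NDUFA3 (0.85), ATP5D (0.52), NDUFB3 (-0.80) and NDUFS6 (-1.82). Between 91 dpc and the adult they were NDUFS6 (1.04), NDUFAF3 (0.86) and NDUFC1 (-0.98). NDUFS6 thus appears at both steps, with opposite signs. Its lower level in Pi at 63 dpc enters the first value and that at 91 dpc the second. With groups of 3 pools, single pools were not screened for outliers.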

How the results depend on the processing

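With arrays scaled to their hybridisation controls, which moves every probe set of an array alike, 3 genes rose and 41 fell between 35 and 63 dpc, 17 fell between 91 dpc and the adult, the breed contrasts at 35 dpc, at 91 dpc and in adults called 38, 42 and 8, and the interactions with the first and the third step 26 and 1. Only the genes picked for pool values in a comparison were followed singly. Of these, NDUFAF3 (-0.39), SDHD (-0.47), UQCR10 (-0.35), ATP5G1 (-0.37), SDHB (-0.53) and SDHC (-0.76) reversed over the first step under that scaling. So did NDUFB10 between breeds at 35 dpc (0.077) and ATP5D in the first interaction (-0.14). Other genes with small rises turned negative over the first step too and are not listed. limma-trend called 3, 11 and 7 genes between breeds at 63 dpc, at 91 dpc and in adults and 8 first interactions. Array weights called 18, 6, 16 and 0 between breeds at 35, 63 and 91 dpc and in adults, and 14, 4 and 0 interactions over the 3 steps. Without dim probe sets, 0 genes fell between 63 and 91 dpc, and 5, 3 and 2 were called between breeds at 35 dpc, 91 dpc and in adults. With the mean over probe sets, SDHB reversed over the first (-0.26) and the third (-0.45) step, and 5, 0 and 8 genes were called between breeds at 35 dpc, 63 dpc and in adults, with 3 first interactions. Fitting only the arrays compared gave 0 falls between 63 and 91 dpc, 0 breed calls at 63 dpc, at 91 dpc and in adults, and 8 and 0 interactions with the first and the third step; it leaves fewer degrees of freedom. For the other settings the cause was not tested. Shares of all probe sets called in these alternative fits, and in those with a pool left out, are not given. The counts from them show only how far a count of the main fit moved.

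The pool letter as a replicate block gave 0 falls between 63 and 91 dpc and 2 breed calls in adults, where COX6C and ATP5B were lost, with NDUFB3 at 35 dpc and COX7A1 over the 4 stages. It changed no other call among the genes named by rule. Letters do not pair the pools: over 84 pairs with the same letter the mean correlation of deviations was -0.00216, none was over 0.1, and 6 of 24 arrays correlated best with their own letter.

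Leaving out each pool in turn, the falls between 63 and 91 dpc numbered 0 to 1, breed calls 3 to 9 at 35 dpc, 1 to 3 at 63 dpc, 1 to 14 at 91 dpc and 1 to 5 in adults, and interactions 4 to 8, 0 to 4 and 1 to 5 over the 3 steps. The ATP5G2 minus ATP5G3 shift between 63 and 91 dpc ranged over -0.21 to -0.14. Within DL and Pi alone the shifts of all 3 isoform differences kept their sign, except ATP5G2 minus ATP5G3 between 91 dpc and the adult, which was -0.01 in DL. In all, 330 of the summary values kept their side of the threshold or stayed within 1.5 times, 66 moved and 6 weakened, and of the single-gene values 1611 held, 146 weakened, 7 strengthened and 10 reversed. NDUFAF2 in 2 adult DL pools is not above the background ceiling, so its level there is only an upper bound.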

Other observations

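Probe sets of the same gene did not always move together. Between 91 dpc and the adult the brightest probe set of NDUFA1 changed by 0.04 and its other one by -4.59, those of SDHB by 0.91 and -1.81, and those of ATP5S by 0.27 and -1.33. NDUFS3 had 1.06, -0.51 and 1.82 over its 3 probe sets, and ATP5L had -0.26, 1.88 and 2.07. Between 35 and 63 dpc COX7C had 0.02 and -2.27, and ATP5L had 0.08, -1.87 and -1.52. Which transcript form each probe set reads was not tested.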
